A study of Mus musculus with 18 samples.

Results

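The response of a gene is taken here as its change between fibroblasts and iECs of the same organ, and the comparison asks whether that response differed between lung and heart. It was computed for every expressed gene as the log2 change of lung iECs over lung fibroblasts minus the log2 change of heart iECs over heart fibroblasts. Of the 18 libraries of the series, 12 enter this difference, and they were chosen by their labels alone: 3 of lung iECs, 3 of lung fibroblasts, 3 of heart iECs and 3 of heart fibroblasts. A positive difference means that the response was larger, or less negative, in the lung.

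All cells were from mouse, were kept in the endothelial growth medium EGM2 and were collected at day 7. The labels do not spell out the name iEC, which in this field usually stands for an induced endothelial cell, that is, another cell type driven toward an endothelial state. The titles of the iEC libraries read SEG and those of the fibroblasts read control, with no further word on the agents, and strain, sex and age of the animals are not given in the sources used here. The 6 libraries of native endothelial cells entered the filter on low counts, the scaling and the shared estimate of the spread, and not the difference itself. The labels do not state whether replicates were separate cultures or animals. The p-values therefore speak only of the scatter among the libraries, and that scatter may be technical. RNA came from bulk cultures, in which fewer cells of a type and less RNA per cell cannot be told apart.

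Endothelial cells line blood and lymph vessels. They are held together by vascular endothelial cadherin, sense the growth factor VEGF and the angiopoietins through receptor kinases, and depend on transcription factors of the ETS and SOX families, among them Erg and Sox17. Arterial endothelium is patterned by Notch signalling, and capillary endothelium differs between lung and heart in the receptors and lipid-handling proteins it carries. Fibroblasts make collagens, elastin and other matrix proteins, and those of each organ keep developmental transcription factors of that organ, such as Tbx20 in the heart and Foxf1 and Tbx4 in the lung.

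Totals per library ran between 17747632 and 23714085 estimated counts. Levels are given as CPM, a count scaled to a common library size after TMM, so they compare libraries and not genes, and 1 count stood for 0.0563 CPM in the shallowest library. A gene is said to rise, fall or differ where edgeR's quasi-likelihood test gave a Benjamini-Hochberg adjusted p under 0.05 over the 14864 genes tested, and the value after ± beside a log2 change is its SE. The lung iEC libraries differed among themselves in genes of macrophages: the 18 markers listed for that cell type summed to 4443, 3181 and 5481 CPM in lung iECs, to 1735, 1405 and 1331 CPM in lung fibroblasts, to 353, 399 and 410 CPM in heart iECs and to 296, 258 and 289 CPM in heart fibroblasts. For Marco, Saa3, Cd14, Hp, C3, Ccl9 and Slc15a3, whose lung iEC libraries stood in this order with a wide spread, the difference is also given without the highest of them, library 3. That library also stood apart in lists of other kinds. In lung iECs the collagen chains summed to 27928, 26677 and 21614 CPM and the venous genes to 1731.9, 1572.5 and 2767.4 CPM.

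The response differed between the organs for 3744 genes, which is 25.2% of those tested. It was larger in the lung for 1873 genes (12.6%) and smaller in the lung for 1871 genes (12.6%), and the median difference over all genes was -0.02 on the log2 scale. The count of called genes in every list below is to be read beside these shares of 12.6% in each direction. The median absolute difference was 0.85 among the called genes and 0.34 among all genes tested. A difference of at least 1 on the log2 scale was reached by 887 of the genes with a larger response and by 707 of those with a smaller one. The call held in each of 12 fits that left out 1 of the libraries for 2666 of the 3744 genes (71.2%).

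Among the 1873 genes with a larger response in the lung, 513 rose in the lung and were not called in the heart, 511 fell in the heart and were not called in the lung, 310 fell in both organs and 284 rose in both. The remaining 233 rose in lung iECs and fell in heart iECs, apart from 22 called in neither organ. Among the 1871 genes with a smaller response, 598 rose in the heart and were not called in the lung, 482 fell in the lung and were not called in the heart, 323 rose in both and 245 fell in both. A further 193 fell in lung iECs and rose in heart iECs, and 30 were called in neither organ. For comparison, 25.9% of all tested genes rose and 24.7% fell in the lung. In the heart 26% rose and 24.6% fell.

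**Figure D1:**
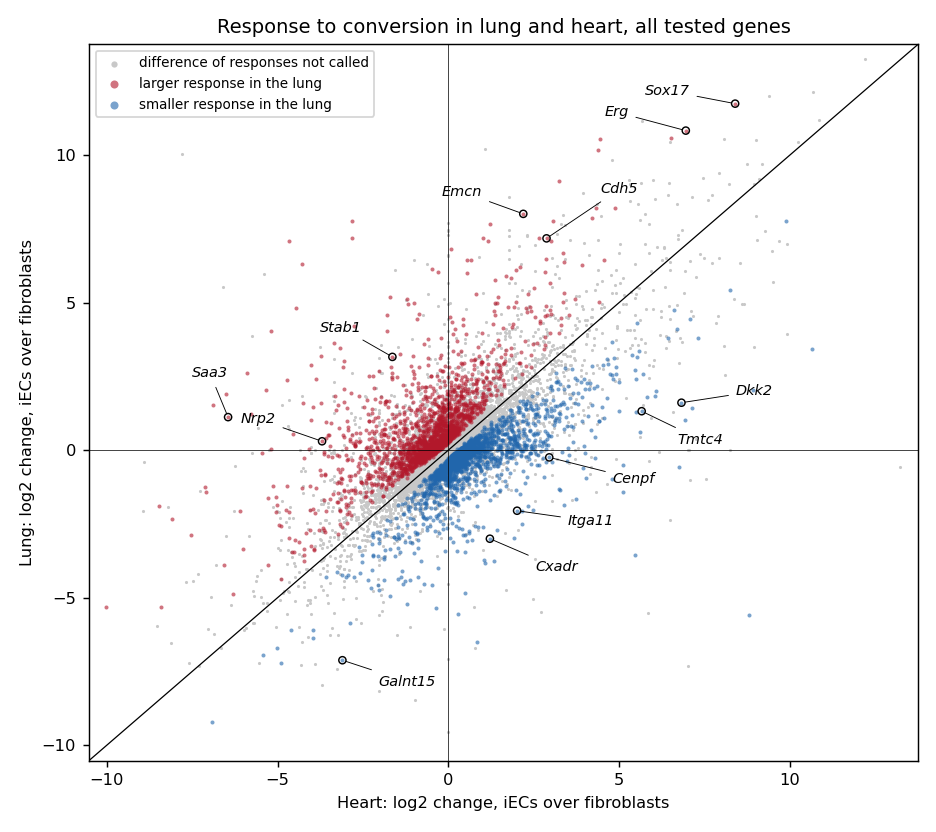
Each point is 1 of the 14864 tested genes, with its log2 change of lung iECs over lung fibroblasts on the vertical axis and of heart iECs over heart fibroblasts on the horizontal axis; red marks the 1873 genes with a larger and blue the 1871 with a smaller response in the lung, grey the rest, and the diagonal marks equal responses. Emcn and Cdh5 lie above the diagonal with both changes positive, Stab1 lies in the quadrant of genes that rose in the lung and fell in the heart, and Itga11 lies in the opposite quadrant.

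The same difference can be read as the gap between the organs in iECs minus the gap between the organs in fibroblasts. Lung and heart fibroblasts differed in 3658 genes that were higher in lung (24.6%) and in 3546 that were lower (23.9%), and lung and heart iECs differed in 2803 higher (18.9%) and 2804 lower (18.9%). Of the 3744 genes whose response differed, 1508 (40.3%) differed between the organs only in fibroblasts, 682 (18.2%) only in iECs, 1001 (26.7%) in both in the same direction and 484 (12.9%) in both in opposite directions. In 69 (1.84%) neither gap was called. "Only" here states which calls passed the threshold and is no test of the one gap against the other.

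**Figure D2:**
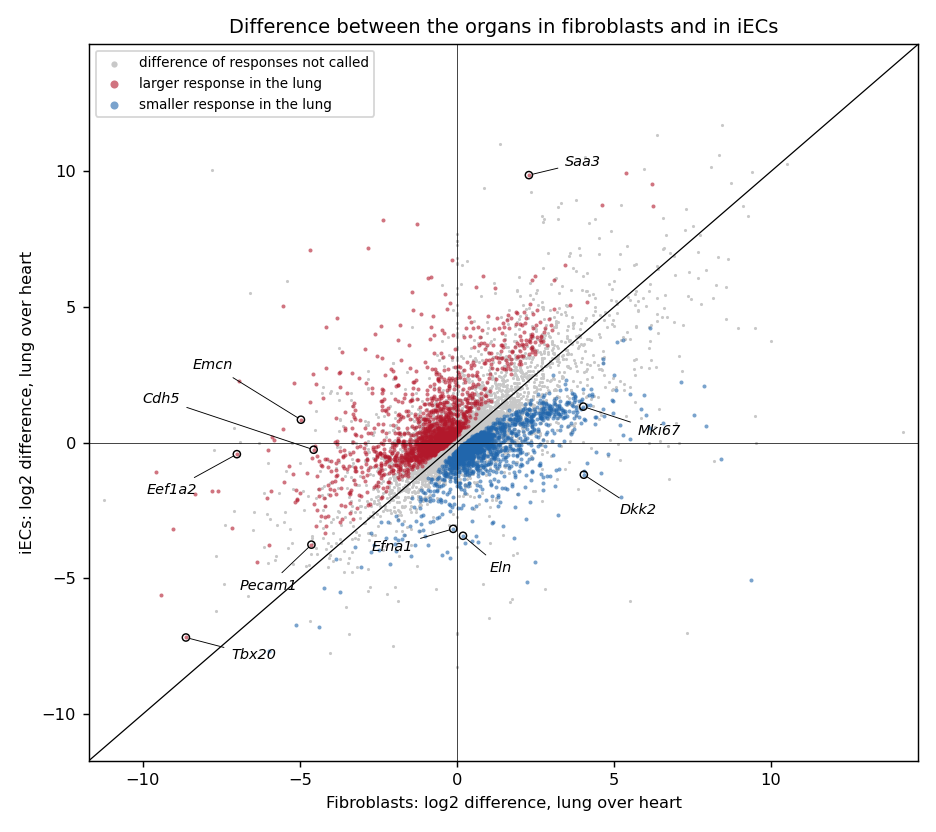
Each point is 1 tested gene, with the log2 difference of lung over heart in iECs on the vertical axis and in fibroblasts on the horizontal axis, coloured as the call on the response. Cdh5 and Eef1a2 lie far to the left and near 0 on the vertical axis, so their organs differed in fibroblasts, while Eln and Efna1 lie near 0 on the horizontal axis and low on the vertical one.

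Sox17 and Erg, endothelial transcription factors, differed between the organs in fibroblasts and overlapped between them in iECs. Sox17 (chromosome 1, 4490931 to 4497354, minus strand, GRCm38) was at 433, 430 and 562 CPM in lung iECs and at 0.0573, 0.0958 and 0.226 CPM in lung fibroblasts, against 487, 433 and 478 CPM in heart iECs and 1.72, 1.05 and 1.33 CPM in heart fibroblasts. Erg (chromosome 16, 95359169 to 95586593, minus strand) was at 959, 956 and 1187 CPM in lung iECs and 0.172, 1.05 and 0.406 CPM in lung fibroblasts, against 1038, 972 and 1063 CPM in heart iECs and 7.31, 8.48 and 8.95 CPM in heart fibroblasts. For both genes the iEC libraries of the organs overlapped and the heart fibroblasts were all above the lung fibroblasts. The response of Sox17 was larger in the lung by 3.35 ± 0.41 on the log2 scale (adjusted p = 9.2e-06) and that of Erg by 3.88 ± 0.32 (adjusted p = 2.2e-07). Between the iECs of the organs the log2 difference, lung over heart, was 0.03 ± 0.12 for Sox17 (adjusted p = 0.89) and 0.01 ± 0.16 for Erg (adjusted p = 0.96).

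Pan-endothelial genes mostly had larger responses in the lung. Of the 30 listed, 23 had a larger response in the lung and 1 a smaller one, with a median difference of 1.73, beside 12.6% in each direction and a median of -0.02 over all genes tested. Their median response was 2.72 on the log2 scale in the lung and 0.81 in the heart: 22 rose and 2 fell in lung iECs, and 17 rose and 8 fell in heart iECs. The larger response did not go with a higher level in lung iECs, since 14 of the 23 were lower in lung iECs than in heart iECs, 5 were higher and 4 did not pass the test. Over all genes tested, 377 (2.54%) joined a larger lung response to a lower level in lung iECs. Heart fibroblasts, which like all these libraries were collected at day 7, carried more of these transcripts: 27 of the 30 genes were lower in lung fibroblasts than in heart fibroblasts, and the summed level of the list was 262 to 263 CPM in lung fibroblasts and 1044 to 1086 CPM in heart fibroblasts. No member was at 0 in any group, and the part that endothelial cells within the heart fibroblast cultures had in these values was not tested.

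Emcn (chromosome 3, 137341067 to 137432185, plus strand), which encodes the sialomucin endomucin of venous and capillary endothelium, had the largest difference of the list. It was at 203, 236 and 244 CPM in lung iECs and 0.974, 0.623 and 1.04 CPM in lung fibroblasts, against 120, 124 and 135 CPM in heart iECs and 28.9, 29.1 and 24.6 CPM in heart fibroblasts. No groups overlapped, and the order of the organs was turned round between the cell types: lung was above heart in iECs and below it in fibroblasts. The response was 258-fold in the lung and 4.59-fold in the heart, a difference of 5.82 ± 0.18 (adjusted p = 6.7e-13).

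Cdh5, the vascular endothelial cadherin that joins neighbouring endothelial cells, was at 444, 454 and 498 CPM in lung iECs and 2.23, 3.88 and 3.39 CPM in lung fibroblasts, against 556, 540 and 569 CPM in heart iECs and 85.9, 67.9 and 72.6 CPM in heart fibroblasts. All 3 lung iEC libraries were slightly below the heart iEC libraries, and the log2 difference between them, -0.26 ± 0.11, did not pass the test (adjusted p = 0.08). The response was larger in the lung by 4.30 ± 0.18 (adjusted p = 1.3e-11), although the gain in CPM was 462 in the lung and 480 in the heart, so that on the additive scale of CPM the order of the organs flips.

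Tie1, an orphan receptor kinase that modulates angiopoietin signalling, was at 82.5, 91.8 and 78.9 CPM in lung iECs and 0.458, 0.623 and 0.722 CPM in lung fibroblasts, against 189, 183 and 185 CPM in heart iECs and 21.6, 20.4 and 26.9 CPM in heart fibroblasts. Lung iECs were below heart iECs, by 1.14 on the log2 scale (lung over heart, -1.14 ± 0.09, adjusted p = 2e-08), and yet the log2 response was larger in the lung by 4.08 ± 0.18 (adjusted p = 4.4e-11); the gain in CPM, 83.8 in the lung and 163 in the heart, runs the other way. Of the 23 pan-endothelial genes with a larger log2 response in the lung, 10 had a smaller gain in CPM there. Over all genes tested, 185 (1.24%) were called in one direction and had gains in CPM that ran in the other.

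Promoters of Emcn and Tie1 are shown as those of the pan-endothelial genes whose fold responses were most unequal and for which a window was at hand, beside Erg, a factor of the ETS family. The RefSeq windows cover 250 bases before to 50 bases after the annotated start on GRCm38.p6, chr3:137340828-137341127 on the plus strand for Emcn and chr4:118489800-118490099 on the minus strand for Tie1, read 5′ to 3′ along the gene. Capitals mark AGGAAG, the core bound by ETS factors, or its reverse complement CTTCCT; both strands were searched.
Emcn: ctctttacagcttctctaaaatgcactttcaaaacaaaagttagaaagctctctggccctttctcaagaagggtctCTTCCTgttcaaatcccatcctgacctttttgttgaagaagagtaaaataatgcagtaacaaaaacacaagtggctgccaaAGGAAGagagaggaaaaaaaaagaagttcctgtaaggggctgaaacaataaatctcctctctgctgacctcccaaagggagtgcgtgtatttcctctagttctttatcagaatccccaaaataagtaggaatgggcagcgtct
Tie1: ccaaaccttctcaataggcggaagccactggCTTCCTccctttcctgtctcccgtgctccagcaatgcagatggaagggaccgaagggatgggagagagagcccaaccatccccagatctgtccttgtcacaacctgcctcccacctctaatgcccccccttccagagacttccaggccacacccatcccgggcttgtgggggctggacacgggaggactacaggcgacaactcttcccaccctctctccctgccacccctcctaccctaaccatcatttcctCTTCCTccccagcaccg

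Each of these windows holds 2 matches, none overlapping another. RefSeq windows were found for 14 of the 30 pan-endothelial genes, and 10 of their 16 promoters held the motif (62.5%), beside 35.4% of all 32851 promoters of the same length. It was in 37.6% of the promoters of genes with a larger response in the lung, in 29.3% of those with a smaller response and in 33.7% of those of all tested genes with a window. A match is a description of the letters and says nothing of binding.

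Robo4, a receptor that stabilises vessels, and Icam2, an adhesion molecule of the endothelial surface, followed Tie1. Both rose in each organ and were lower in lung iECs than in heart iECs, and their gains in CPM were 14.9 and 8.73 in the lung against 15.6 and 33.3 in the heart, so that the order flips on the additive scale. Robo4 was at 12.9 to 18.8 CPM in lung iECs and at most 0.958 CPM in lung fibroblasts, against 24 to 25.2 CPM in heart iECs and 7.74 to 9.82 CPM in heart fibroblasts, and its response was larger in the lung by 3.72 ± 0.43 (adjusted p = 1.1e-05). Pecam1, an adhesion molecule found on nearly all endothelium, was at 7.78, 7.52 and 6.08 CPM in lung iECs and 1.72, 2.3 and 1.72 CPM in lung fibroblasts, against 89.8, 97.4 and 102 CPM in heart iECs and 51.5, 44.9 and 46.3 CPM in heart fibroblasts. All heart fibroblast libraries were thus above all lung iEC libraries for this gene. Its response was larger in the lung by 0.88 ± 0.15 (adjusted p = 0.00035), with a gain of 5.21 CPM in the lung and 48.7 CPM in the heart, so the additive scale flips the order here too.

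Tek, the receptor kinase for angiopoietins, rose in lung iECs to 9.06, 9.8 and 7.04 CPM, against 0.745, 1.01 and 0.903 CPM in lung fibroblasts. In the heart it was at 37.5, 42.4 and 37 CPM in iECs and 36.7, 30.1 and 29.4 CPM in fibroblasts, so the response of 0.28 ± 0.11 was small there, and the difference of responses was 2.99 ± 0.21 (adjusted p = 1.3e-08). Nos3, the endothelial nitric oxide synthase, and Rasip1, needed for vessel lumens, fell in the heart and were not called in the lung. Nos3 was at 0.289 to 0.474 CPM in lung iECs and 0.0573 to 0.858 CPM in lung fibroblasts, against 0.355 to 0.834 CPM in heart iECs and 5.42 to 6.84 CPM in heart fibroblasts, a difference of 3.16 ± 0.63 (adjusted p = 0.001). Rasip1 was at 0.988 to 2.07 CPM in lung iECs and 0.677 to 1.37 CPM in lung fibroblasts, against 0.561 to 0.71 CPM in heart iECs and 4.26 to 6.42 CPM in heart fibroblasts, a difference of 3.59 ± 0.39 (adjusted p = 2.4e-06).

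Cd34, a surface mucin of endothelial and progenitor cells that fibroblasts also carry, was the 1 pan-endothelial gene with a smaller response in the lung. It fell in both organs, to 2.04, 1.98 and 1.93 CPM in lung iECs, against 26.2, 22.9 and 21.9 CPM in lung fibroblasts, and to 9.36, 8.38 and 8.25 CPM in heart iECs, against 39.7, 40.2 and 39.3 CPM in heart fibroblasts. The difference of responses was -1.38 ± 0.15 (adjusted p = 2.8e-06), and on the additive scale its loss was greater in the heart. Esam, a junction molecule, was of the opposite kind: 27.5 to 30.8 CPM in lung iECs and 3.79 to 6.01 CPM in lung fibroblasts, against 7.92 to 9.84 CPM in heart iECs and 7.9 to 9.92 CPM in heart fibroblasts. Its response was larger in the lung by 2.49 ± 0.19 (adjusted p = 4.2e-08) and its heart groups overlapped.

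**Figure D3:**
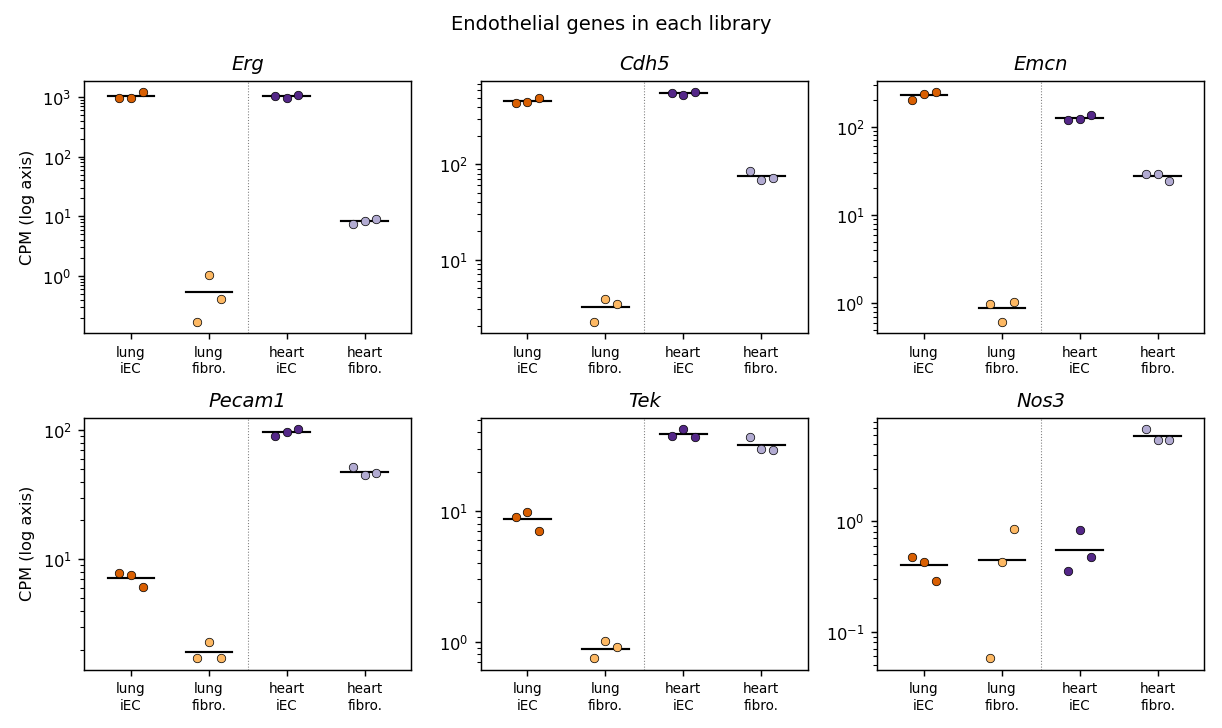
CPM on a log axis in each of the 12 libraries for 6 endothelial genes, with 1 point per library and a bar at the mean of each group of 3; fibro. stands for fibroblasts. Erg and Cdh5 lie close together in the iECs of both organs and far apart in the fibroblasts, Emcn is higher in lung iECs, Pecam1 and Tek are lower in lung iECs, and Nos3 is high in heart fibroblasts alone.

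Among 24 endothelial transcription factors, 10 had a larger and 5 a smaller response in the lung, with a median difference of 0.36. Besides Sox17 and Erg, Fli1, an ETS factor of endothelium and blood, rose to 11.4, 10.6 and 12.2 CPM in lung iECs, against 2.35, 3.79 and 3.48 CPM in lung fibroblasts, and fell to 11.4, 10.8 and 9.54 CPM in heart iECs, against 16.6, 14.8 and 17.4 CPM in heart fibroblasts. The 2 iEC groups overlapped, and the difference of responses was 2.44 ± 0.19 (adjusted p = 4.2e-08). Bcl6b, a repressor found in endothelium, differed by 2.28 ± 0.45 (adjusted p = 0.0017), Ets1, another ETS factor, by 1.44 ± 0.16 (adjusted p = 2.1e-06). The iECs of the organs overlapped for Bcl6b, at 17.6 to 43.8 CPM of Bcl6b in lung iECs and 24.9 to 27.7 CPM of Bcl6b in heart iECs. They did not for Ets1, at 88.7 to 124 CPM of Ets1 in lung iECs and 143 to 151 CPM of Ets1 in heart iECs. Klf2, which responds to blood flow, fell in lung iECs to 14.6 to 17.9 CPM, against 23.8 to 34.2 CPM in lung fibroblasts, and rose in heart iECs to 25.3 to 31.1 CPM, against 17.2 to 22 CPM in heart fibroblasts. The difference for Klf2 was -1.39 ± 0.22 (adjusted p = 0.00013). Nr2f2, the factor known for venous identity, fell in the lung and was not called in the heart, a difference of -0.86 ± 0.09 (adjusted p = 2.8e-06).

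Arterial genes split, with 8 of 19 larger and 7 smaller in the lung and a median difference of -0.20. In both organs most of them rose: 16 of 19 in lung iECs and 15 of 19 in heart iECs. Dll4, the Notch ligand of arterial and sprouting endothelium, reached 8.44, 8.59 and 7.72 CPM in lung iECs, against 0.229, 0.24 and 0.226 CPM in lung fibroblasts, and 66.3, 70.2 and 68.9 CPM in heart iECs, against 5.9, 3.69 and 6.23 CPM in heart fibroblasts. Lung iECs were far below heart iECs (log2 difference -3.05 ± 0.14, adjusted p = 5.1e-12). The fold response was nevertheless larger in the lung, by 1.42 ± 0.33 (adjusted p = 0.0039), and the gain in CPM was larger in the heart. Gja4, the arterial gap junction protein connexin 37, behaved alike, with 4 to 5.67 CPM in lung iECs and 0.144 to 0.229 CPM in lung fibroblasts, against 30.1 to 30.7 CPM in heart iECs and 3.03 to 4.28 CPM in heart fibroblasts. Gja4 thus had a difference of 1.63 ± 0.38 (adjusted p = 0.0039).

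Efnb2, the ligand that marks arterial endothelium, was at 143 to 160 CPM in lung iECs and 137 to 152 CPM in heart iECs, and its response was smaller in the lung by 1.16 on the log2 scale (-1.16 ± 0.14, adjusted p = 5.1e-06), lung fibroblasts being at 42.6 to 50.1 CPM and heart fibroblasts at 17.8 to 23 CPM. Cxcr4, the receptor for the chemokine Cxcl12, rose in the lung and fell in the heart and was at 3.28 to 7.52 CPM in lung iECs and 5.13 to 5.79 CPM in heart iECs. For Cxcr4 the responses differed by 2.44 ± 0.30 (adjusted p = 9.6e-06). Cxcl12 itself fell in both organs, to 131 to 174 CPM in lung iECs, against 529 to 651 CPM in lung fibroblasts, and to 57.6 to 62 CPM in heart iECs, against 450 to 489 CPM in heart fibroblasts. The difference for Cxcl12 was 1.06 ± 0.14 (adjusted p = 2.3e-05). In CPM its loss was slightly greater in the lung, so the order flips on that scale. Gja5, the arterial connexin 40, was at 88.8 to 112 CPM in lung iECs and at most 0.767 CPM in lung fibroblasts, against 360 to 384 CPM in heart iECs and at most 0.787 CPM in heart fibroblasts. Its difference of -2.12 ± 0.60 (adjusted p = 0.016) lost its call without lung fibroblast library 2 (-1.52, adjusted p = 0.14). So did the difference of the Notch target Hey1, -1.86 ± 0.54 (adjusted p = 0.017), which was -1.45 (adjusted p = 0.11) without the same library and -1.60 (adjusted p = 0.052) without heart fibroblast library 2.

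In the Notch pathway 6 of 17 genes had a larger and 2 a smaller response in the lung, with a median of 0.39. Notch1, a receptor, rose in lung iECs to 91.8, 92.6 and 92.3 CPM, against 14.9, 22 and 15.8 CPM in lung fibroblasts, and in heart iECs to 153, 139 and 163 CPM, against 47, 51.4 and 53 CPM in heart fibroblasts, a difference of 0.80 ± 0.15 (adjusted p = 0.0006) whose order flips on the additive scale. In the same pathway 12 genes were lower and 2 higher in lung iECs than in heart iECs.

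Genes of VEGF and angiopoietin signalling were larger in the lung for 10 of 17 members and smaller for 3, with a median of 0.82. Nrp2, a co-receptor for VEGF-C and semaphorins, was at 119, 89.2 and 143 CPM in lung iECs and 88.2, 98.4 and 98 CPM in lung fibroblasts, which overlapped. In the heart the same gene fell to 12.9, 15.5 and 15.9 CPM in iECs, against 190, 186 and 198 CPM in fibroblasts, and the difference of responses was 4.0 ± 0.19 (adjusted p = 8.2e-11). Angptl4, a secreted inhibitor of lipoprotein lipase, had the same shape, with 96.1 to 222 CPM in lung iECs and 140 to 183 CPM in lung fibroblasts, against 7.59 to 8.81 CPM in heart iECs and 84.3 to 103 CPM in heart fibroblasts. Angptl4 thus had a difference of 3.34 ± 0.45 (adjusted p = 9.9e-05). Flt4, the receptor for VEGF-C that marks lymphatic endothelium, rose to 87.2 to 115 CPM in lung iECs, against 21.1 to 23.5 CPM in lung fibroblasts, and to 60.1 to 74.7 CPM in heart iECs, against 52.4 to 57.7 CPM in heart fibroblasts. For Flt4 the responses differed by 1.87 ± 0.15 (adjusted p = 9.1e-08).

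Angpt4, an angiopoietin ligand, went the other way and fell to 1.9, 1.72 and 1.69 CPM in lung iECs, against 39.4, 40.7 and 42.6 CPM in lung fibroblasts, and to 4.93, 6.17 and 5.31 CPM in heart iECs, against 9.24, 8.48 and 9.26 CPM in heart fibroblasts. The difference for Angpt4 was -3.81 ± 0.26 (adjusted p = 8.2e-09). Vegfa, the main endothelial growth factor, fell in lung iECs and rose in heart iECs, with 79 to 92.4 CPM in lung iECs and 140 to 150 CPM in lung fibroblasts, against 130 to 163 CPM in heart iECs and 100 to 120 CPM in heart fibroblasts. Vegfa thus had a difference of -1.13 ± 0.16 (adjusted p = 3.7e-05).

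Lymphatic genes were larger in the lung for 6 of 10 and smaller for 2, with a median of 1.61. Lyve1, the hyaluronan receptor of lymphatic vessels that some macrophages also carry, rose to 12.9, 17.1 and 13.4 CPM in lung iECs, against 3.09, 4.26 and 4.78 CPM in lung fibroblasts, and was at 17.2, 18.1 and 15.8 CPM in heart iECs and 20.4, 22.6 and 18.5 CPM in heart fibroblasts. For Lyve1 the responses differed by 2.10 ± 0.19 (adjusted p = 3.4e-07). The 2 iEC groups overlapped for this gene. Venous genes were larger in the lung for 3 of 12 and smaller for 2, and 2 to 3 were larger with a library left out. In the capillary list 6 of 18 were larger and 4 smaller, with a median of 0.70. Ednrb, the endothelin receptor typical of lung capillaries, rose to 30.2, 42.4 and 34.1 CPM in lung iECs, against 2.29, 5.32 and 3.88 CPM in lung fibroblasts, and fell to 4.88, 5.46 and 5.61 CPM in heart iECs, against 11.3, 9.37 and 12.2 CPM in heart fibroblasts. The difference for Ednrb was 4.23 ± 0.35 (adjusted p = 3.8e-07). Aqp1, a water channel of capillary endothelium, rose in both organs by unequal amounts, with 132 to 261 CPM in lung iECs and 60.5 to 72.3 CPM in lung fibroblasts, against 75.6 to 113 CPM in heart iECs and 9.5 to 9.9 CPM in heart fibroblasts. Aqp1 thus had a difference of -1.68 ± 0.37 (adjusted p = 0.004); on the additive scale its gain was larger in the lung.

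Further genes that rose in lung iECs and fell in heart iECs were of several kinds. Stab1, a scavenger receptor of sinusoidal endothelium and of macrophages, was at 168, 164 and 90.6 CPM in lung iECs and 11.8, 19.8 and 15.5 CPM in lung fibroblasts, against 21.3, 22.3 and 20.9 CPM in heart iECs and 74.3, 64.2 and 62.1 CPM in heart fibroblasts. Every lung iEC library was above every other library of these 4 groups, and the difference was 4.80 ± 0.35 (adjusted p = 1.6e-07). Spns2, the transporter that releases sphingosine-1-phosphate from endothelium, was at 5.55, 7.3 and 3.62 CPM in lung iECs and 1.03, 0.575 and 0.767 CPM in lung fibroblasts, against 8.34, 10.9 and 10.8 CPM in heart iECs and 35.2, 27.9 and 32.5 CPM in heart fibroblasts. Heart was above lung in iECs, and the difference was 4.48 ± 0.32 (adjusted p = 2.4e-08). Tgfbi, a matrix protein induced by TGF-beta, differed by 4.69 ± 0.31 (adjusted p = 1.5e-08), with 9.63 to 18.4 CPM in lung iECs and 3.55 to 4.92 CPM in lung fibroblasts, against 1.73 to 2.46 CPM in heart iECs and 14.3 to 19.9 CPM in heart fibroblasts.

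St8sia4, a polysialyltransferase, rose in the lung and was not called in the heart: 36.5, 38.8 and 38.6 CPM in lung iECs and 0.229, 0.575 and 0.722 CPM in lung fibroblasts, against 1.78, 2.38 and 2.85 CPM in heart iECs and 4.12, 2.79 and 2.72 CPM in heart fibroblasts. The lung iEC libraries were above all the others of these 4 groups, and the difference of 6.62 ± 0.37 (adjusted p = 1.3e-09) was the second largest by the rule for named genes. Megf10, an engulfment receptor, rose in both, to 219 to 282 CPM in lung iECs, against 1.6 to 1.72 CPM in lung fibroblasts, and to 57.2 to 82.2 CPM in heart iECs, against 10.5 to 11.8 CPM in heart fibroblasts. For Megf10 the responses differed by 4.53 ± 0.26 (adjusted p = 2.2e-09). Sucnr1, the succinate receptor, had 1 count in lung fibroblasts in all, so no fold is given: it was at 2.85 to 5.74 CPM in lung iECs, against 16.1 to 18 CPM in heart iECs and 6.69 to 7.56 CPM in heart fibroblasts.

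Genes with the most negative differences included several that fell in lung iECs and rose in heart iECs. Itga11, the collagen-binding integrin subunit of fibroblasts, was at 12.1, 11 and 7.77 CPM in lung iECs and 38.1, 44.3 and 45.9 CPM in lung fibroblasts, against 79, 85.7 and 74.5 CPM in heart iECs and 20, 19.8 and 19.3 CPM in heart fibroblasts. The groups did not overlap and the difference was -4.07 ± 0.20 (adjusted p = 1.7e-10). Cxadr, a junction protein that serves as the receptor of coxsackievirus and adenovirus, was at 9.11, 7.78 and 9.17 CPM in lung iECs and 52.7, 88.4 and 67.2 CPM in lung fibroblasts, against 14.1, 21.4 and 15.2 CPM in heart iECs and 6.58, 8.42 and 6.78 CPM in heart fibroblasts. The difference for Cxadr was -4.22 ± 0.38 (adjusted p = 1.3e-06). Limch1, which activates non-muscle myosin, had the same pattern (difference -4.15 ± 0.39, adjusted p = 2.7e-06), as did Map3k7cl (-5.40 ± 0.66, adjusted p = 8.8e-06), whose lung and heart iECs overlapped at 1.45 to 4.17 CPM and 1.96 to 3.77 CPM.

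Tmtc4, a protein mannosyltransferase of the endoplasmic reticulum, rose in both organs and far more in the heart. It was at 30.3, 32.9 and 20.8 CPM in lung iECs and 9.39, 11.8 and 12.3 CPM in lung fibroblasts, against 345, 398 and 328 CPM in heart iECs and 6.42, 8.16 and 6.47 CPM in heart fibroblasts. The response was 2.5-fold in the lung and 50.7-fold in the heart (difference -4.34 ± 0.25, adjusted p = 3.8e-09). Dkk2, a secreted Wnt antagonist, reached 24, 28.1 and 17.6 CPM in lung iECs, against 8.02, 6.28 and 8.53 CPM in lung fibroblasts, and 52, 55.7 and 49.8 CPM in heart iECs, against 0.47, 0.737 and 0.121 CPM in heart fibroblasts. Dkk2 thus had a difference of -5.22 ± 0.49 (adjusted p = 1.4e-06). Heart was below lung in fibroblasts and above it in iECs.

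Fgf10, the growth factor of lung mesenchyme that drives airway branching, fell in lung iECs to 1.8, 1.38 and 1.35 CPM, against 19, 23 and 21.6 CPM in lung fibroblasts, and was at or below 0.417 CPM in every heart library. For Fgf10 the responses differed by -4.89 ± 0.69 (adjusted p = 3.5e-05). Galnt15, an enzyme that starts O-glycans, fell in both organs, to 0.289 to 0.759 CPM in lung iECs, against 60.1 to 100 CPM in lung fibroblasts, and to 6 to 7.01 CPM in heart iECs, against 52 to 58.3 CPM in heart fibroblasts. The difference for Galnt15 was -4.02 ± 0.37 (adjusted p = 8.3e-07). Calml4, Pdlim4, Slc26a7 and Mrgprf completed the 12 most negative genes by the rule, with differences of -5.83 ± 0.69, -4.19 ± 0.56, -4.07 ± 0.81 and -4.01 ± 0.45 in that order; for Pdlim4 the gain in CPM was larger in the lung.

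Fibroblast and matrix genes mostly had smaller responses in the lung. Of 30 listed, 18 had a smaller response in the lung and 3 a larger one, with a median difference of -0.84. In lung iECs 26 of the 30 fell and 3 rose, and in heart iECs 14 fell and 8 rose. The count of larger responses was between 1 and 4 when any 1 of the 12 libraries was left out. Lox, the enzyme that crosslinks collagen and elastin, fell to 1624, 1534 and 1271 CPM in lung iECs, against 6278, 7597 and 7907 CPM in lung fibroblasts, and was at 2571, 2935 and 2580 CPM in heart iECs and 2810, 2985 and 2815 CPM in heart fibroblasts, which overlapped. Lox thus had a difference of -2.21 ± 0.16 (adjusted p = 1.4e-08). Fn1, fibronectin, fell in lung iECs and rose in heart iECs (difference -1.31 ± 0.19, adjusted p = 5.7e-05). Mfap4, a microfibril protein, fell in both organs, to 0.338 to 0.806 CPM in lung iECs, against 72 to 109 CPM in lung fibroblasts, and to 10.2 to 15.8 CPM in heart iECs, against 318 to 429 CPM in heart fibroblasts. For Mfap4 the responses differed by -2.31 ± 0.42 (adjusted p = 0.00083); its loss in CPM was greater in the heart.

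Eln, elastin, was called different between the organs in iECs and was not called in fibroblasts. It was at 43.5, 16.8 and 5.4 CPM in lung iECs and 150, 218 and 190 CPM in lung fibroblasts, against 242, 246 and 218 CPM in heart iECs and 152, 165 and 170 CPM in heart fibroblasts. The spread among lung iEC libraries was wide, and the difference of -3.62 ± 0.78 (adjusted p = 0.0042) was -3.17 (adjusted p = 0.0025) without the lowest of them. Dpt, dermatopontin, had 3 counts in lung iECs in all and was at 4.65 to 6.04 CPM in lung fibroblasts, 10.5 to 10.8 CPM in heart iECs and 314 to 356 CPM in heart fibroblasts.

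Collagen chains followed, with 12 of 20 smaller in the lung and 3 larger and a median of -1.02. Their summed level was 27928, 26677 and 21614 CPM in lung iECs and 46629, 56884 and 55212 CPM in lung fibroblasts, against 39479, 41561 and 39361 CPM in heart iECs and 47639, 50589 and 49640 CPM in heart fibroblasts. All lung iEC libraries were below all others of these 4 groups, and 17 of the 20 chains were lower in lung iECs than in heart iECs while none was higher. Col1a1, a chain of the main fibrillar collagen, fell in lung iECs to 7002, 6515 and 5206 CPM, against 12813, 15361 and 15320 CPM in lung fibroblasts, and was at 8711, 9195 and 8653 CPM in heart iECs and 8002, 8932 and 8617 CPM in heart fibroblasts. The difference for Col1a1 was -1.27 ± 0.16 (adjusted p = 1.1e-05). Col15a1, a chain of vessel basement membranes, rose in both, to 239, 212 and 112 CPM in lung iECs, against 33.9, 35.1 and 37.4 CPM in lung fibroblasts, and to 597, 609 and 582 CPM in heart iECs, against 11.6, 16.6 and 10.9 CPM in heart fibroblasts. Col15a1 thus had a difference of -3.10 ± 0.30 (adjusted p = 2.4e-06). The chains with a larger response in the lung were Col5a3, Col4a1 and Col4a2, of which the last 2 belong to basement membranes, with differences of 1.59 ± 0.24, 0.53 ± 0.13 and 0.54 ± 0.12 in that order; for Col5a3 the gain in CPM was slightly larger in the heart.

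In the basement membrane list 6 of 16 were smaller (37.5%) and 2 larger (12.5%), the larger count being at the share of all genes tested (12.6%). Nid2, nidogen 2, fell to 49.3 to 72.1 CPM in lung iECs, against 379 to 560 CPM in lung fibroblasts, and was at 117 to 128 CPM in heart iECs and 115 to 122 CPM in heart fibroblasts. For Nid2 the responses differed by -3.02 ± 0.21 (adjusted p = 2.4e-08). Among contractile genes, 2 of 15 were smaller and 1 was larger, a share near that of all genes tested. The smaller count was between 1 and 4 when a library was left out and 4 by DESeq2. Tagln, a smooth muscle actin-binding protein, rose in both organs (difference -1.62 ± 0.19, adjusted p = 8.2e-06), and its gain in CPM was larger in the lung. In the pericyte list 4 of 8 tested genes were smaller and 1 was larger, and the list summed to 269 to 383 CPM in lung iECs and 665 to 787 CPM in lung fibroblasts, against 758 to 811 CPM in heart iECs and 1203 to 1240 CPM in heart fibroblasts.

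Genes of mitosis had smaller responses in the lung almost throughout. Of 20 listed, 19 were smaller and none larger, with a median of -1.90, and the 19 held in each fit that left out a library. Bub1b, a spindle checkpoint kinase, was the exception (difference -0.29 ± 0.23, adjusted p = 0.4). In heart iECs 19 of the 20 rose, with a median of 2.21, and in lung iECs 4 rose, with a median of 0.17. The list summed to 576, 561 and 447 CPM in lung iECs and 464, 434 and 450 CPM in lung fibroblasts, against 263, 250 and 252 CPM in heart iECs and 57.2, 64.1 and 60.6 CPM in heart fibroblasts. Heart fibroblasts were the lowest group, and all 20 genes were higher in lung than in heart both in fibroblasts and in iECs.

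Cenpf, a kinetochore protein, had the largest difference of these. It was at 18.7, 18.5 and 11.6 CPM in lung iECs and 15.4, 21.3 and 21.1 CPM in lung fibroblasts, which overlapped, against 11.2, 8.05 and 9.93 CPM in heart iECs and 1.41, 1 and 1.33 CPM in heart fibroblasts. The difference for Cenpf was -3.20 ± 0.30 (adjusted p = 4.9e-07). Mki67, the proliferation marker Ki-67, was at 70.7, 59.6 and 45.5 CPM in lung iECs and 50.2, 52.2 and 53.3 CPM in lung fibroblasts, against 24.4, 22.5 and 22.8 CPM in heart iECs and 2.35, 3.21 and 4.05 CPM in heart fibroblasts. Mki67 thus had a difference of -2.69 ± 0.23 (adjusted p = 1.4e-07). Its lung groups overlapped and its heart groups did not.

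Their promoters are shown as members of a list that moved together. The RefSeq windows, of the same build and length as above, are chr1:189688037-189688336 for Cenpf and chr7:135716330-135716629 for Mki67, both on the minus strand, and capitals mark TTTGAA, the core of the cell cycle homology region, searched on both strands with its reverse complement TTCAAA.
Cenpf: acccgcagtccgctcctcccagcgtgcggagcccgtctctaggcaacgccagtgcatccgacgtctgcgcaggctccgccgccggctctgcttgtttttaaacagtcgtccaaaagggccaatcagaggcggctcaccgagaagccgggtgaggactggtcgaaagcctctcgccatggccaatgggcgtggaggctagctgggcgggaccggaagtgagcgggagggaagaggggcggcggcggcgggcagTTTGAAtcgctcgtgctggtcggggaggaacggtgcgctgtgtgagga
Mki67: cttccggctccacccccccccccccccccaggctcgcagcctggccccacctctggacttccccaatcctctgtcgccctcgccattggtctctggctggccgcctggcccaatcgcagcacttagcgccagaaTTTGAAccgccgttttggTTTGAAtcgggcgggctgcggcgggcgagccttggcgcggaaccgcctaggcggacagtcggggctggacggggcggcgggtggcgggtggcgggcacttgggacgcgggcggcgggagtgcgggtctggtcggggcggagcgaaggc

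Cenpf holds 1 match and Mki67 holds 2. Windows were found for 17 of the 20 mitosis genes, and 12 of the 17 promoters held the motif (70.6%), beside 17.9% of all promoters of the same length and 12.6% of those of tested genes. It was in 11.6% of the promoters of genes with a larger response in the lung and in 14.1% of those with a smaller response, both near the share of tested genes. The SOX core AACAAT, also searched, was in 6.32% and 5.89% in that order, beside 6.13% of tested genes. The sterol regulatory element TCACNCCAC was in 1 of 14 promoters of cholesterol synthesis genes.

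DNA replication genes followed in part, with 8 of 22 smaller in the lung, none larger and a median of -0.64. Mcm5, a subunit of the replicative helicase, rose in lung iECs to 22.2 to 24.1 CPM, against 10.8 to 14 CPM in lung fibroblasts, and in heart iECs to 8.09 to 10 CPM, against 1.67 to 2.16 CPM in heart fibroblasts. For Mcm5 the responses differed by -1.43 ± 0.22 (adjusted p = 9.9e-05); its gain in CPM was larger in the lung. Rrm2, a subunit of ribonucleotide reductase, was at 31.5 to 42.5 CPM in lung iECs and 39.8 to 47.3 CPM in heart iECs, which overlapped. The difference for Rrm2 was -1.35 ± 0.21 (adjusted p = 0.00012). Of 16 p53 targets and CDK inhibitors, 4 were larger and 1 was smaller, beside 12.6% in each direction over all genes tested. With a library left out 3 to 6 were larger and 0 to 2 smaller, and DESeq2 called 7 larger.

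Cholesterol synthesis genes fell in both organs and fell less in the lung. Of 18 listed, 14 had a larger, that is less negative, response in the lung and none a smaller one, with a median of 0.72; 16 fell in lung iECs and 17 in heart iECs. The list summed to 1493, 1409 and 1352 CPM in lung iECs and 2142, 1948 and 2081 CPM in lung fibroblasts, against 1286, 1378 and 1409 CPM in heart iECs and 2896, 3094 and 3033 CPM in heart fibroblasts. The iECs of the organs overlapped and the heart fibroblasts were above the lung fibroblasts. Mvd, an enzyme of the mevalonate pathway, was at 23.5, 21.1 and 22.9 CPM in lung iECs and 34.1, 26.1 and 29.9 CPM in lung fibroblasts, against 14.7, 16.6 and 14.8 CPM in heart iECs and 51.7, 60.7 and 63.1 CPM in heart fibroblasts. Mvd thus had a difference of 1.51 ± 0.20 (adjusted p = 2.4e-05). Nsdhl, Lss and Dhcr7, later enzymes of the route, differed by 1.21 ± 0.18, 1.04 ± 0.20 and 0.95 ± 0.12 in that order. Between 10 and 14 of the 18 were called when a library was left out.

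Macrophage markers had larger responses in the lung for 13 of 18 genes and smaller for none, with a median of 1.19. All 18 rose in lung iECs, 5 rose and 2 fell in heart iECs, and none was at 0 in any group. Marco, a scavenger receptor of alveolar macrophages, was at 516, 156 and 1053 CPM in lung iECs and 133, 96.3 and 80.5 CPM in lung fibroblasts, against 0.799, 0.959 and 2.2 CPM in heart iECs and 4.02, 3.95 and 4.48 CPM in heart fibroblasts. Its difference of 4.12 ± 0.98 (adjusted p = 0.0078) was 3.35 (adjusted p = 0.014) without the highest lung iEC library. Csf1r, the receptor that macrophages need for survival, was steadier, at 82.2, 69.6 and 71.5 CPM in lung iECs and 24.4, 24.3 and 20.4 CPM in lung fibroblasts, against 10.1, 11.4 and 12.3 CPM in heart iECs and 6.89, 6.95 and 7.68 CPM in heart fibroblasts. For Csf1r the responses differed by 1.04 ± 0.14 (adjusted p = 3e-05). C1qa, a complement component of tissue macrophages, differed by 1.2 ± 0.30 (adjusted p = 0.0088). Markers of other leukocytes were low, with 2 of 14 genes tested and a summed level of 0.0526 to 2.61 CPM over the 12 libraries, 1 of them being at 0 in lung fibroblasts.

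Several of the largest positive differences were in genes whose lung iEC libraries were widely spread. Saa3, an acute phase protein made by macrophages and fibroblasts, was at 301, 22.5 and 858 CPM in lung iECs and 252, 212 and 79.2 CPM in lung fibroblasts, against 0.533, 0.501 and 0.216 CPM in heart iECs and 37.8, 30.7 and 42.2 CPM in heart fibroblasts. The lung groups overlapped, and it was the fall in the heart that passed the test. The difference was 7.57 ± 1.82 (adjusted p = 0.0083), and without the highest lung iEC library it was 6.29 (adjusted p = 0.022). Cd14, the co-receptor for bacterial lipopolysaccharide, was at 20.9, 7.95 and 79.7 CPM in lung iECs and 11.4, 11.9 and 7.36 CPM in lung fibroblasts, against 0.799, 0.626 and 0.561 CPM in heart iECs and 8.09, 5.95 and 5.93 CPM in heart fibroblasts. Its rise in the lung was called although the lung groups overlapped, lung iEC library 2 being below lung fibroblast libraries 1 and 2. The heart groups did not overlap. For Cd14 the difference of 5.15 ± 1.27 (adjusted p = 0.0098) was 3.82 (adjusted p = 0.012) without lung iEC library 3. Hp, haptoglobin, fell in both organs, to 5.11 to 45.9 CPM in lung iECs, against 90.6 to 129 CPM in lung fibroblasts, and to 1.15 to 4.62 CPM in heart iECs, against 621 to 723 CPM in heart fibroblasts. The difference for Hp was 5.75 ± 1.2 (adjusted p = 0.0035). It was 4.76 (adjusted p = 0.011) without lung iEC library 3. The part that macrophages in the lung cultures had in these values was not tested.

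In the acute phase and complement list 7 of 15 genes were larger in the lung and 2 smaller, with a median of 0.86, and no gene of it rose in either organ: 12 fell in lung iECs and 14 in heart iECs. C3, the central complement component, fell to 262, 110 and 370 CPM in lung iECs, against 2144, 3245 and 2183 CPM in lung fibroblasts, and to 106, 134 and 147 CPM in heart iECs, against 8580, 7645 and 8588 CPM in heart fibroblasts. C3 thus had a difference of 2.65 ± 0.52 (adjusted p = 0.0021). Without lung iEC library 3 it was 2.24 (adjusted p = 0.0048). Chemokine and cytokine genes were larger in the lung for 5 of 24 and smaller for none, with a median of 1.26, and 8 were larger without lung iEC library 2, the one lowest in macrophage markers. Ccl9, a chemokine of myeloid cells, was at 113, 66.2 and 231 CPM in lung iECs and 49.1, 40.1 and 38.8 CPM in lung fibroblasts, against 8.34, 9.93 and 8.76 CPM in heart iECs and 32.4, 30.7 and 32 CPM in heart fibroblasts. For Ccl9 the responses differed by 3.49 ± 0.63 (adjusted p = 0.0012). Leaving out lung iEC library 3 gave 2.89 (adjusted p = 0.0016). Of 18 interferon response genes, none differed by edgeR's test, 1 had an unadjusted p under 0.05 and 1 was called by DESeq2. Their difference was positive in 14 and negative in 4, with a median of 0.37. The list summed to 2063, 1181 and 3728 CPM in lung iECs, and with this spread the lack of calls does not show equal responses. For Pf4, platelet factor 4, which macrophages can also express, the difference was 3.70 ± 0.38 (adjusted p = 3e-06), with 32.5 to 46.8 CPM in lung iECs and 3.66 to 5.5 CPM in lung fibroblasts, against 1.46 to 2.46 CPM in heart iECs and 2.42 to 3.65 CPM in heart fibroblasts.

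**Figure D4:**
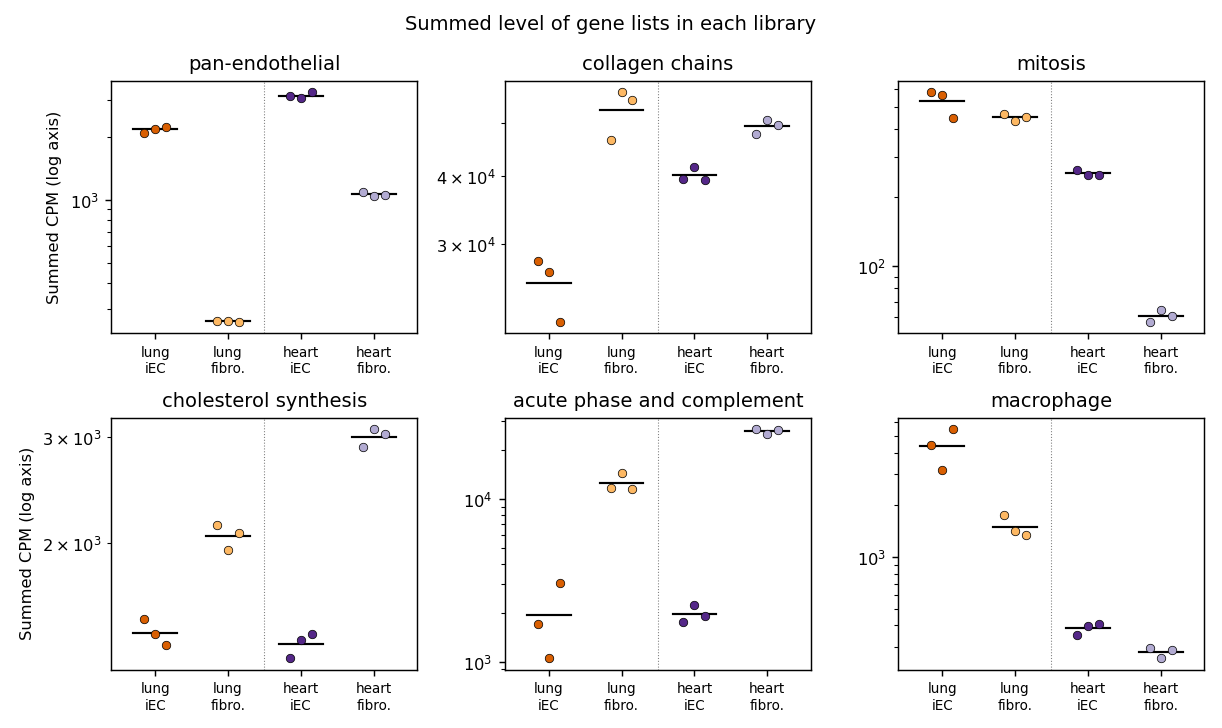
Summed CPM of 6 gene lists in each of the 12 libraries on log axes, with 1 point per library and a bar at the mean of each group of 3. Pan-endothelial genes are higher in heart than in lung fibroblasts, mitosis genes are lowest in heart fibroblasts, cholesterol synthesis genes overlap in the iECs of both organs, and macrophage markers are highest and most spread in lung iECs.

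Transcription factors of organ mesenchyme had no common direction of response. Of 16 lung mesenchyme factors tested, 15 had more transcript in lung fibroblasts and all 16 had more in lung iECs, each set against the heart. Their responses were larger in the lung for 4 and smaller for 3. Foxf1, a forkhead factor of lung mesenchyme and lung capillaries, was at 31.3, 29.9 and 42 CPM in lung iECs and 37.9, 35.5 and 39.9 CPM in lung fibroblasts, which overlapped, and fell to 3.06, 3.13 and 2.89 CPM in heart iECs, against 7.78, 7.58 and 6.72 CPM in heart fibroblasts. The difference for Foxf1 was 1.15 ± 0.22 (adjusted p = 0.00091). Tbx4, a T-box factor of lung mesenchyme, fell in lung iECs to 45.8 to 55.3 CPM, against 64.1 to 71.5 CPM in lung fibroblasts, and rose in heart iECs to 2.46 to 2.93 CPM, against 0.666 to 1.46 CPM in heart fibroblasts. Tbx4 thus had a difference of -1.92 ± 0.28 (adjusted p = 4.7e-05). Of 12 heart mesenchyme factors, 4 were larger in the lung and 3 smaller. Tbx20, a T-box factor of the heart, was at 3.56, 2.96 and 3.47 CPM in lung iECs and 2.63, 3.26 and 2.75 CPM in lung fibroblasts, which overlapped. In the heart it fell to 474, 484 and 487 CPM in heart iECs, against 1215, 1159 and 1056 CPM in heart fibroblasts. For Tbx20 the responses differed by 1.45 ± 0.19 (adjusted p = 2.1e-05).

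Tnnt2, cardiac troponin T, was the 1 gene of 7 tested in the cardiomyocyte list to differ (4.0 ± 0.50, adjusted p = 1.6e-05). It was at 0.645 to 1.01 CPM in lung iECs and 0.527 to 0.722 CPM in lung fibroblasts, against 6.56 to 8.01 CPM in heart iECs and 83.1 to 93.3 CPM in heart fibroblasts. The list summed to 1.99 to 2.41 CPM in lung iECs, with 1 member at 0, to 0.858 to 0.974 CPM in lung fibroblasts, with 4 at 0, to 8.34 to 9.85 CPM in heart iECs, with 1 at 0, and to 84.5 to 95.1 CPM in heart fibroblasts, with none at 0. Mesothelial markers summed to 47.7 to 66 CPM in lung iECs and 324 to 344 CPM in lung fibroblasts, against 107 to 120 CPM in heart iECs and 60.7 to 81.6 CPM in heart fibroblasts. The heart sum does not follow most members: 9 of the 11 genes fell in both organs, while 2 rose in heart iECs. In the difference of responses 1 of 11 was larger (9.1%, 0 to 1 genes with a library left out) and 2 were smaller (18.2%, 1 to 2 genes). Over all genes tested the share was 12.6% in each direction. Gpm6a, a membrane glycoprotein, was at -3.84 ± 0.22 (adjusted p = 2.6e-09). Epithelial markers summed to at most 5.99 CPM in any of the 12 libraries, and 1 of 6 tested was smaller. Of those 6, 1 was at 0 in lung fibroblasts, 3 in heart iECs and 3 in heart fibroblasts.

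In the TGF-beta and BMP list 8 of 22 were larger in the lung and 5 smaller, with a median of -0.07. Acvrl1, the endothelial BMP9 receptor ALK1, rose to 211, 222 and 235 CPM in lung iECs, against 116, 106 and 106 CPM in lung fibroblasts, and fell to 221, 233 and 231 CPM in heart iECs, against 281, 280 and 269 CPM in heart fibroblasts. The difference for Acvrl1 was 1.30 ± 0.09 (adjusted p = 7.6e-09). Ltbp1, which anchors latent TGF-beta in the matrix, fell in the lung and rose in the heart and was at 210 to 247 CPM in lung iECs and 237 to 249 CPM in heart iECs. Ltbp1 thus had a difference of -2.90 ± 0.26 (adjusted p = 8.9e-07). Of 24 Wnt pathway genes, 9 were smaller (37.5%) and 4 larger (16.7%), with a median of -0.59. Over all genes tested the share was 12.6% in each direction, which the larger count was near. Besides Dkk2, Fzd4, the Wnt and norrin receptor of endothelium, rose to 101, 108 and 80 CPM in lung iECs, against 47.2, 66.8 and 60 CPM in lung fibroblasts, and to 329, 319 and 309 CPM in heart iECs, against 90.2, 92.8 and 86.4 CPM in heart fibroblasts. For Fzd4 the responses differed by -1.10 ± 0.15 (adjusted p = 3.3e-05).

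Protease and integrin genes went both ways, with 3 larger and 4 smaller of 22 proteases and inhibitors and 3 larger and 4 smaller of 17 integrins, beside 12.6% in each direction over all genes tested. Plau, the urokinase plasminogen activator, rose in lung iECs to 30.3 to 52.8 CPM, against 15.6 to 17 CPM in lung fibroblasts, and fell in heart iECs to 3.32 to 3.68 CPM, against 14.8 to 19.6 CPM in heart fibroblasts. The difference for Plau was 3.50 ± 0.27 (adjusted p = 9e-08). Itga6, a laminin receptor subunit of endothelium, rose in the lung and was not called in the heart (difference 1.42 ± 0.12, adjusted p = 1.4e-07). In the insulin-like growth factor axis 4 of 13 were larger and 4 smaller. The larger count was between 2 and 4 with a library left out and 2 with no filter on low counts, and the growth factors Igf1 and Igf2 each lost the call in 8 of the 12 fits without 1 library. Among glycolysis and hypoxia genes 5 of 18 were smaller and none larger, in retinoic acid signalling 2 of 13 were larger and 3 smaller, and of antigen presentation genes 1 of 14 was larger. With a library left out, 1 to 2 of the retinoic acid genes and 0 to 2 of the antigen presentation genes were larger.

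**Figure D5:**
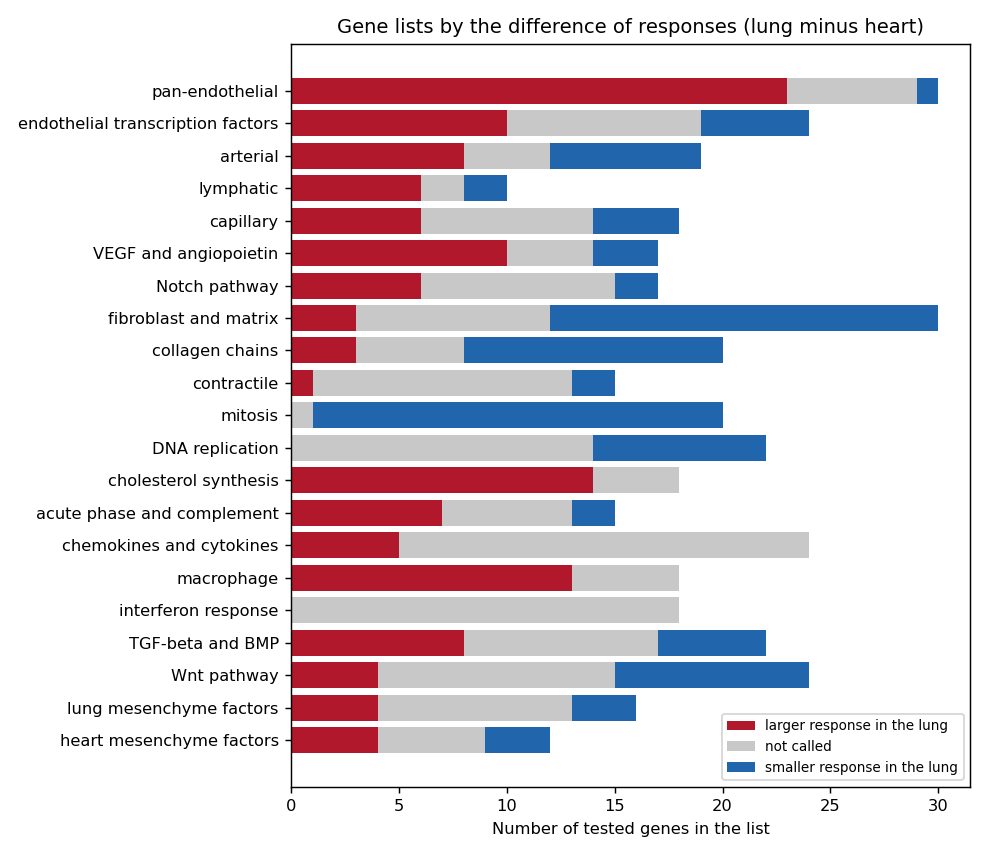
Number of tested genes of 21 lists whose response was larger in the lung (red), smaller in the lung (blue) or not called (grey). Most pan-endothelial genes (23 of 30), cholesterol synthesis genes (14 of 18) and macrophage markers (13 of 18) are larger, most mitosis genes (19 of 20) are smaller, and interferon response genes hold no call.

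A class of its own is made of genes whose organs differed in fibroblasts only. Eef1a2, a translation elongation factor of muscle and nerve, was at 0.237, 0.172 and 0 CPM in lung iECs and 0.344, 0.479 and 0.722 CPM in lung fibroblasts, against 0.311, 0.125 and 0.13 CPM in heart iECs and 73.1, 59.2 and 72.7 CPM in heart fibroblasts. Among these 4 groups it was high in heart fibroblasts alone, and its difference of 6.58 ± 1.37 (adjusted p = 0.0021) was among the 3 largest by the rule for named genes. Gsta3, a glutathione transferase, and Cst6, a cystatin, were also highest in heart fibroblasts, with differences of 4.05 ± 0.47 and 3.97 ± 0.45. Tspan13, a tetraspanin, and Pcdh12, an endothelial protocadherin, were at overlapping levels in iECs: 33.2 to 40.3 CPM of Tspan13 in lung iECs and 32 to 37.4 CPM in heart iECs, and 8.96 to 13.8 CPM of Pcdh12 in lung iECs and 11.1 to 13.3 CPM in heart iECs. Their differences were 3.90 ± 0.49 and 4.40 ± 0.49. On the negative side Adgrd1, an adhesion receptor, Prrx2, a homeobox factor of mesenchyme, and Adh1, an alcohol dehydrogenase, were high in lung fibroblasts and differed by -3.40 ± 0.39, -3.32 ± 0.42 and -2.94 ± 0.41.

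Another class is made of genes whose organs differed in iECs and whose gap in fibroblasts did not pass the test. Efna1, the ephrin ligand that endothelium displays to Eph receptors, was at 3.98, 3.44 and 3.57 CPM in lung iECs and 3.95, 5.03 and 4.33 CPM in lung fibroblasts, against 35.2, 32.6 and 31.3 CPM in heart iECs and 5.48, 4.42 and 4.54 CPM in heart fibroblasts. Heart iECs stood above every other library of these 4 groups (difference -3.06 ± 0.17, adjusted p = 1.1e-09). Plagl1, an imprinted zinc finger factor, had the same shape, at 6.13 to 7.73 CPM in lung iECs and 6.36 to 11.8 CPM in lung fibroblasts, against 34 to 38.7 CPM in heart iECs and 6.41 to 7.58 CPM in heart fibroblasts. Plagl1 thus had a difference of -2.88 ± 0.31 (adjusted p = 3.6e-06). Tmem252, a membrane protein, and Neurl3, a ubiquitin ligase, rose in the lung and fell in the heart, with differences of 4.08 ± 0.36 (adjusted p = 2e-07) and 4.04 ± 0.60 (adjusted p = 0.00018). Slc15a3, a lysosomal peptide transporter of immune cells, was at 38.4, 23.8 and 86.3 CPM in lung iECs and 17.5, 13.2 and 10.8 CPM in lung fibroblasts, against 3.11, 2.46 and 3.32 CPM in heart iECs and 19, 17.6 and 18.2 CPM in heart fibroblasts (difference 4.47 ± 0.78, adjusted p = 0.00094), and 3.80 (adjusted p = 0.0014) without lung iEC library 3.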

How the data were processed

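Bulk mRNA libraries from mouse cells were compared in 6 groups of 3, of which 4 groups enter the difference of responses. The authors deposited 1 table of estimated counts per gene, made per the submitters' processing notes with Salmon and DESeq2 on the mm10 build; versions and the way transcripts were summed to genes are not given in the sources used here. The values are whole numbers and were used unscaled. Symbols and coordinates came from GENCODE M21 on GRCm38, with 35422 of 35727 IDs matched, and promoters from RefSeq on GRCm38.p6.

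The work was done with edgeR 4.0.16 under R 4.3.3: filterByExpr on the 6 groups (14864 genes, 99.97% of counts), TMM scaling and robust quasi-likelihood models with 1 coefficient per group over all 18 libraries (12 residual degrees of freedom, common biological coefficient of variation 0.135). A call needed an adjusted p (Benjamini-Hochberg, per contrast) below 0.05. SEs were derived as the size of the log2 change over the root of its F statistic. Replicates correlated at 0.976 to 0.989 (Pearson, log2 CPM). Organ gaps and response patterns were sorted from the calls of the single contrasts and have no test of their own.

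Named genes were Sox17 and Erg, the 12 largest differences in each direction, the 6 largest of each pattern and class described, and up to 5 called members of each list with up to 2 in the other direction; clones and predicted genes were left out, and the first 3 kinds needed 10 CPM in 1 group and a call in every fit that left out a library, list members 5 CPM. Further list members are given as values. The comparison and the 36 lists were chosen with earlier results of these data known. Genes with at most 3 counts in a group (floor of 3 counts) are given without a fold.

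On simulated counts of 14651 genes run, 200 genes were given a set difference. Of these, 76 of 100 differences of 1 and 91 of 100 of 2 on the log2 scale were recovered. Of 8569 unchanged genes 25 were called. The remaining genes also carried a difference, because simulated levels were kept within each gene's observed range, and they are in neither count. They enter the adjusted p, so recovery with 200 changed genes alone was not measured. The 200 genes were drawn only from those above a floor of average expression, so the recovery does not cover genes at low counts. Alternatives were DESeq2 1.42.0, other scaling, filters, thresholds and prior counts, the 12 libraries alone, a replicate block and each library left out.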

Additional observations from a re-analysis of the deposited data

Results flagged for a closer look

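Every gene counted here was called in the test of the difference between the 2 organs, which is what singles it out. The patterns of rise and fall were sorted from the calls within each organ and have no test of their own. The response was larger in the lung for 1873 genes and smaller in the lung for 1871. In 233 genes the iECs rose over fibroblasts in the lung and fell in the heart, and in 193 they fell in the lung and rose in the heart. Among the genes that rose in the lung and fell in the heart, the difference of the log2 responses was 5.15 for Cd14, a co-receptor of macrophages, 4.80 for Stab1, a scavenger receptor, 4.69 for the matrix protein Tgfbi, 4.48 for the sphingosine-1-phosphate transporter Spns2 and 4.47 for the peptide transporter Slc15a3. Among those that fell in the lung and rose in the heart, it was -5.40 for Map3k7cl, -4.22 for the junction protein Cxadr, -4.15 for the myosin activator Limch1, -4.07 for the integrin subunit Itga11, -3.35 for the sphingomyelinase Smpd3 and -3.32 for Vill, a villin-like protein. Cd14 and Slc15a3 were highest in the lung iEC library that was also highest in the macrophage list, and the part of macrophages in them was not tested. For Cd14 the lung iEC and lung fibroblast libraries overlapped, although its rise in the lung was called.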

How the results depend on the processing

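Testing against a log2 difference of 1 instead of 0 left 330 genes with a larger and 262 with a smaller response in the lung. Asking for a 1.5-fold organ gap put 646 genes in both cell types with the same direction, 197 in both with opposite directions and 1174 in neither. With 1 library left out, the larger calls ran between 1591 and 1930 and the smaller between 1597 and 2053. DESeq2 called 4102 genes and shared 3680 with the same direction; RLE scaling called 3726, no filter 3319, a filter of 5 CPM in 3 libraries 3582 and the 12 libraries alone 3768. Dpt, at 3 counts in lung iECs, changed sign with a prior count of 5 (0.67). Over the 194 named genes and the fits without 1 library each, 2201 of 2328 values kept direction and call, 127 lost the call and none reversed. Genes named for a large difference, a pattern or a class were chosen for holding the call in these same fits. Their part of the count was thus fixed in advance. Over all 3744 called genes, 2666 (71.2%) held in every such fit. Under the other alternatives 1536 of 1552 values were kept, 15 lost the call and 1 reversed. For the prior counts of 0.5 and 5 only the direction was compared, so no call could be lost there. Samples with the same replicate number showed no shared deviation (correlations between -0.14 and 0.05, own number best in 3 of 12). With 3 libraries per group this cannot decide whether they shared an animal, culture or day. With a replicate block 3551 genes were called, 3515 of them shared. A count of 1 was 0.0563 CPM in the shallowest library, which limits genes such as Sucnr1, Dpt and Hoxb5.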
